A study of Homo sapiens with 6 samples.

Results

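Integrin, laminin and collagen genes were followed in PC-3 cells, a cultured line derived from a human prostate cancer, after exposure to trans-Gnetin H (TGH), which the study's title calls a trimer of resveratrol. The members were all rows of the deposited expression table whose symbol named an integrin alpha or beta subunit with a number, a laminin chain or a collagen chain, and there were 70 of them among 18780 genes: 19 integrins, 12 laminins and 39 collagens. Cells received TGH at 2.5 µM for 24 h (3 libraries) or the solvent dimethyl sulfoxide (DMSO) for 24 h (3 libraries), both in DMEM/F12 medium with fetal bovine serum. The 6 libraries come from 1 cell line, and the labels do not say whether they are separate cultures, so p-values measure only the spread between these libraries, which may be technical.

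Laminins are cross-shaped proteins of the basement membrane, each built from an alpha, a beta and a gamma chain that assemble inside the cell and are secreted together. LAMA3 and LAMB3 encode an alpha and a beta chain of the epithelial laminin that anchors basal cells of stratified and glandular epithelia, while LAMA5 with LAMB1 or LAMB2 and LAMC1 forms laminins that are widespread in basement membranes. Integrins are paired alpha and beta subunits in the plasma membrane: ITGB1 pairs with many alpha subunits, ITGA3 and ITGA6 bind laminin, ITGA1 and ITGA2 bind collagen, and ITGA6 with ITGB4 forms the receptor at the core of hemidesmosomes. Collagens are trimers of chains with a repeated glycine, and they range from the fibrils of connective tissue to the type IV network of basement membranes. In the prostate the basal cell layer rests on such a basement membrane, and loss of ITGB4 and of LAMB3 protein is a known feature of prostate carcinoma.

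Levels are given in TPM, which corrects reads for transcript length and for the library's total. Setting levels of different genes side by side rests on the transcript lengths used, which the sources used here do not give. The table held 1342 to 1498 genes at exactly 0 in the TGH libraries and 1530 to 3185 in the DMSO libraries. All 5 epithelial markers were expressed, with summed levels of 1487 to 1503 TPM in TGH libraries and 1815 to 1900 TPM in DMSO libraries. The markers did not all differ alike. KRT8 averaged 424 TPM with TGH and 604 TPM with DMSO, and KRT18 421 TPM with TGH and 577.5 TPM with DMSO. With TGH given first, EPCAM averaged 166 and 181 TPM, KRT19 430 and 458 TPM, and CDH1 51.9 and 49.6 TPM. The part of these differences in the results below was not tested, except that DMSO replicate 3, whose number of zeros is nearest to that of the TGH libraries, was also used as the only control. No fibroblast, endothelial or immune marker reached a mean of 1 TPM. The highest single value was 1.16 TPM among the 7 fibroblast markers, 0.358 among the 4 endothelial and 0.254 among the 5 immune ones. In bulk RNA, fewer cells of a kind and less RNA per cell cannot be told apart.

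Among the largest rises were those of the epithelial laminin chains LAMB3 and LAMA3, the collagen chain COL8A1, the laminin chain LAMB2 and the integrin subunit ITGA3, while ITGA6, ITGB4 and COL1A1 fell. Of the 70 members, 34 averaged 1 TPM or more across all 6 libraries and were tested: 8 laminins, 12 integrins and 14 collagens. A gene was called at an adjusted p under 0.05 (limma, two-sided, Benjamini-Hochberg over 12018 genes). By that rule 17 of the 34 rose and 3 fell, or 50% and 8.82%, against 28.9% higher and 26.3% lower among all genes tested. In all, 58.8% of the tested members were called, near the 55.2% of all genes, so the number of calls alone is no result about the members. The median log2 difference was 0.13 over the 34 members and 0.02 over all genes tested. The groups did not overlap in 23 members, of which 19 were above and 4 below, where 64.4% of all genes did not overlap, 33.6% above and 30.8% below. A called rise of at least 0.5 on the log2 scale was seen in 6 of the 34, or 17.6%, against 7.29% of all genes. COL8A1 counts among these 6 and among the 17, but its mean reached 1 TPM only through the TGH libraries, so it had to differ to be tested. No member had a called fall of at least 0.5, which 3.31% of all genes had.

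**Figure D1:**
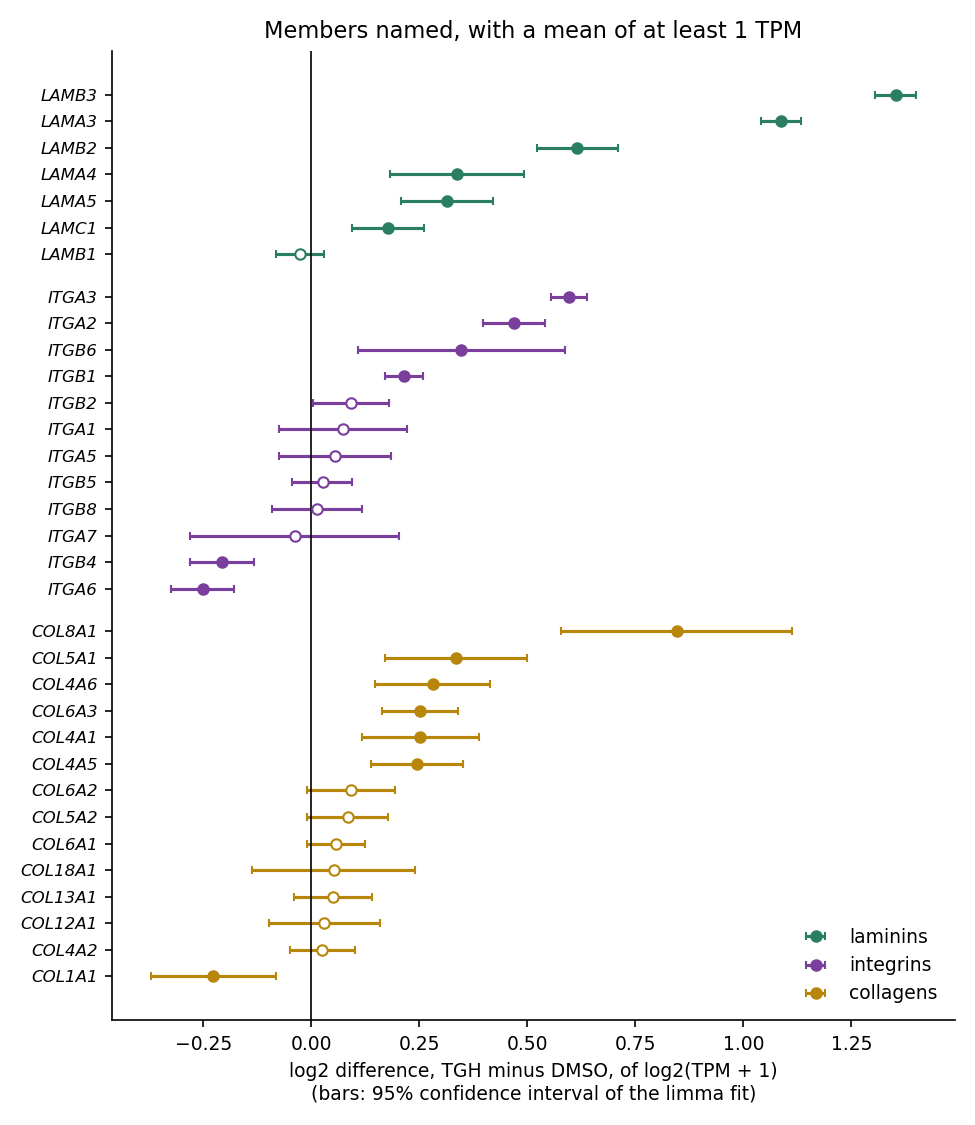
Log2 difference of the tested members named in the text, TGH minus DMSO, on the log2(TPM + 1) scale, with 95% confidence intervals of the limma fit (n = 3 libraries a group). Filled points were called at an adjusted p under 0.05, open points were not. LAMB3 at 1.35 and LAMA3 at 1.09 lie farthest to the right, and ITGA6 at -0.25 lies farthest to the left.

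The promoters of LAMA3 and LAMB3 are shown because these genes rose the most among the members. AP-1, the transcription factor of FOS and JUN proteins, binds the motif TGANTCA, which reads the same on both strands and was searched from 250 bases before to 50 after each annotated start in RefSeq's table (GRCh38.p14). The table matched 25 of the 34 tested members with 34 such windows. Members without an entry, among them ITGA3, ITGB4, COL1A1 and COL8A1, were not searched. The motif was in 3 windows (8.82%), those of LAMA3, LAMB3 and ITGA5, near the 7.73% of all 34796 promoters. LAMB3 has 3 windows in the table, and only the one shown holds the motif. In the LAMA3 window (chr18:23872770-23873069, plus strand) the motif occurs at 125 and at 69 bases upstream of the start. In the LAMB3 window (chr1:209651325-209651624, minus strand) it occurs at 67 bases upstream. Capitals mark the motif, and both runs are written 5′ to 3′.
LAMA3: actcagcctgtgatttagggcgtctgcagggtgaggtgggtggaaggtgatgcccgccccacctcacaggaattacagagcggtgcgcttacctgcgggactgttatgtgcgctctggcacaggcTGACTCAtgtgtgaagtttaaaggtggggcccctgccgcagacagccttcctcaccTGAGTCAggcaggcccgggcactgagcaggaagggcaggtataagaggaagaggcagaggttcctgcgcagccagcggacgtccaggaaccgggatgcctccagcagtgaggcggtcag
LAMB3: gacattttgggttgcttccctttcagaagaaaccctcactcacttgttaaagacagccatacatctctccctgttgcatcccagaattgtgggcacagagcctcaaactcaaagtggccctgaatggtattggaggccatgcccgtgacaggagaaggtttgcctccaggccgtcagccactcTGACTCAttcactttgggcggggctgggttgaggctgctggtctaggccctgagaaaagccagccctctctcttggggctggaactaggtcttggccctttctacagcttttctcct
A match is a run of letters and not a measured binding site. In ITGA5, whose level did not change detectably, the motif lies 6 bases upstream of the start. The windows were also searched for the TATA, GC and CCAAT boxes, which are other promoter motifs. Of these, the LAMA3 window held a GC box, and the LAMB3 window shown held a GC box and a CCAAT box. The GC box was in 44.9% of all promoters, and the CCAAT box in 34.6%.

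LAMB3 and LAMA3 of the epithelial laminin rose, and by unequal amounts. LAMB3, the beta chain, had 322, 332 and 329 TPM in TGH replicates 1 to 3, against 129, 128 and 126 TPM in DMSO replicates 1 to 3. Every TGH library was above every DMSO library, with a log2 difference of 1.35 (SE 0.020, adjusted p = 1.78e-07). It ranked 77 among the rises of all 12018 genes tested. LAMA3, the alpha chain, had 126, 125 and 126 TPM with TGH, against 59.1, 58.4 and 58.4 TPM with DMSO. The groups were far apart, and the log2 difference was 1.09 (SE 0.020, adjusted p = 4.99e-07), which ranked 137. The call and direction of both genes held under all 16 alternative settings.

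LAMB3 had a higher level than LAMA3 in both groups. The ratio of LAMB3 TPM to LAMA3 TPM was 2.61 ± 0.0483 with TGH and 2.18 ± 0.0205 with DMSO (SD, n = 3 each). The groups did not overlap in this ratio, and an exact two-sided permutation test gave p = 0.1, the smallest value that 3 libraries against 3 allow. The summed TPM of all laminin members was 661 ± 7.69 TPM with TGH and 338 ± 0.417 TPM with DMSO.

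Of LAMA4, LAMA5, LAMB1, LAMB2 and LAMC1, 4 rose and 1 was not called, where 28.9% of all genes tested were higher and 55.2% were called. LAMB2, a beta chain of laminins at synapses, vessels and kidney filters, had 23.9, 25.9 and 24.2 TPM with TGH, against 15.6, 15.6 and 16.1 TPM with DMSO. It rose by 0.62 (SE 0.040, adjusted p = 4.2e-05). LAMB1, the other widespread beta chain, had 40.6, 40.8 and 40.1 TPM with TGH, against 41.1, 41.5 and 41.2 TPM with DMSO. All TGH libraries were slightly below all DMSO libraries, but the log2 difference of -0.03 was not called (95% confidence interval -0.08 to 0.03, adjusted p = 0.362).

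The alpha chain LAMA5 had 30.2, 32.2 and 30.8 TPM with TGH, against 23.4, 25.4 and 25.7 TPM with DMSO, a rise of 0.31 (SE 0.045, adjusted p = 0.00122). LAMA4, an alpha chain best known from vessel walls and muscle, had 6.18, 6.42 and 5.91 TPM with TGH, against 4.27, 4.67 and 5.10 TPM with DMSO. It rose by 0.34 (SE 0.065, adjusted p = 0.0046). LAMC1, the gamma chain of most laminins, had 16.5, 16.3 and 16.1 TPM with TGH, against 14.7, 13.8 and 14.4 TPM with DMSO, a rise of 0.18 (SE 0.035, adjusted p = 0.00494). None of these 3 chains overlapped between the groups, as was so for 64.4% of all genes tested. The values of LAMA5 and LAMB1 carry an uncertainty: exons of LAMA5 overlap ADRM1 and exons of LAMB1 overlap DLD on the opposite strand in GENCODE 29. ADRM1 averaged 187 TPM with TGH and 234 TPM with DMSO, and DLD 47.4 TPM with TGH and 50.2 TPM with DMSO. The libraries were prepared with a directional kit, but the sources used here do not say whether reads were counted by strand. In all, 12 of the 34 tested members have exons that overlap a gene on the opposite strand. Among them are ITGA6, ITGB1 and LAMA4, for which no level of the overlapping gene is listed.

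**Figure D2:**
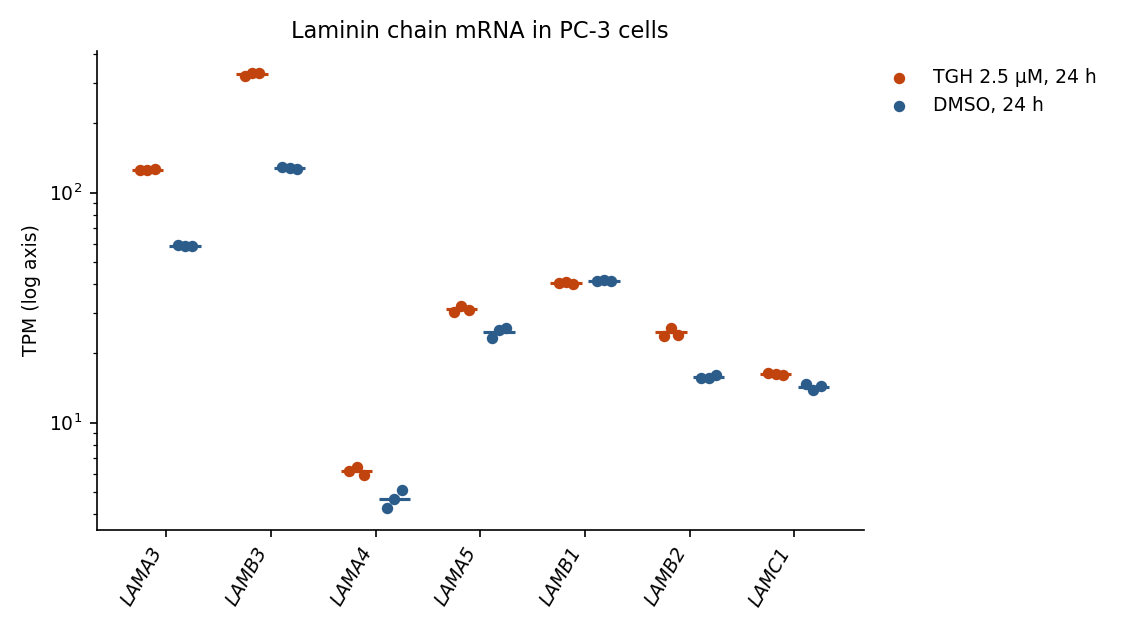
TPM of 7 tested laminin chains in each library on a log axis, with TGH left of DMSO for each gene. Each point is 1 library and each line the mean of 3. LAMA3 and LAMB3 are higher in every TGH library, and LAMB1 lies near 41 TPM in both groups.

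Integrin subunits moved in both directions: 4 of the 12 tested rose, 2 fell and 6 were not called. The shares of 33.3% higher, 16.7% lower and 50% called were near the 28.9%, 26.3% and 55.2% of all genes, so these counts are no result about the integrins. ITGA3, which pairs with ITGB1 to bind the LAMA3-containing and LAMA5-containing laminins, was the most abundant alpha subunit. It had 267, 274 and 269 TPM with TGH, against 178, 178 and 179 TPM with DMSO. The 2 groups were separated by far more than the spread within either, and the log2 difference was 0.60 (SE 0.017, adjusted p = 2.25e-06). ITGA2, which pairs with ITGB1 to bind collagen, had 72.4, 69.1 and 71.3 TPM with TGH, against 50.03, 52.4 and 50.4 TPM with DMSO. It rose by 0.47 (SE 0.030, adjusted p = 4.11e-05). ITGB1, the shared beta subunit, was the most abundant member, with 632, 615 and 615 TPM in TGH libraries, against 543, 532 and 530.1 TPM in DMSO libraries. All TGH libraries were above all DMSO libraries, by 0.21 on the log2 scale (SE 0.018, adjusted p = 0.000134).

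Both subunits of the hemidesmosome integrin fell. ITGA6 had 29.9, 28.5 and 29.2 TPM with TGH, against 35.6, 34.3 and 35.0 TPM with DMSO, a log2 difference of -0.25 (SE 0.030, adjusted p = 0.000602). ITGB4, its partner there, had 50.3, 53.8 and 51.2 TPM with TGH, against 59.8, 60.4 and 59.5 TPM with DMSO. It fell by 0.21 (SE 0.030, adjusted p = 0.00141), and neither gene overlapped between groups. The ratio of ITGB4 to ITGA6 was 1.77 ± 0.103 with TGH and 1.71 ± 0.0425 with DMSO (SD, n = 3 each), and the groups overlapped. The ratio of ITGA3 to ITGA6, the 2 main laminin-binding alpha subunits, was 9.25 ± 0.333 with TGH and 5.10 ± 0.102 with DMSO, without overlap (exact permutation p = 0.1, the smallest this design allows).

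ITGB6, the beta subunit of an epithelial receptor that binds the precursor of TGF-beta, had 3.997, 3.05 and 3.58 TPM with TGH, against 2.25, 2.88 and 2.57 TPM with DMSO. It was called at 0.35 (SE 0.101, adjusted p = 0.0244), but that call was lost under 8 of 15 alternatives, with an adjusted p up to 0.0805. The libraries left out one at a time that end it are TGH replicate 1 (0.28, adjusted p = 0.0794), TGH replicate 3 (0.34, adjusted p = 0.0736), DMSO replicate 1 (0.28, adjusted p = 0.0579) and DMSO replicate 3 (0.35, adjusted p = 0.0585). ITGAV, the alpha partner of ITGB6, ITGB5 and ITGB8, falls outside the symbol rule because its name has no number. It averaged 14.2 ± 0.341 TPM with TGH and 11.7 ± 0.197 TPM with DMSO and rose by 0.26 (SE 0.034, adjusted p = 0.000908).

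ITGA5, the fibronectin-binding alpha subunit, had 7.65, 8.09 and 7.89 TPM with TGH, against 7.21, 8.16 and 7.28 TPM with DMSO, and the groups overlapped. Its log2 difference was 0.06 (95% confidence interval -0.07 to 0.18, adjusted p = 0.414). The intervals of the other uncalled subunits were -0.04 to 0.09 for ITGB5, -0.09 to 0.12 for ITGB8, -0.07 to 0.22 for ITGA1, -0.28 to 0.20 for ITGA7 and 0.003 to 0.18 for ITGB2. In ITGB2 all TGH libraries were above all DMSO libraries, but the log2 difference of 0.09 was not called (adjusted p = 0.0751). ITGB2, the beta subunit of leukocyte integrins, averaged 12.2 TPM with TGH and 11.4 TPM with DMSO although PTPRC, the pan-leukocyte marker, was at 0.0975 TPM with TGH and 0.111 TPM with DMSO. Its exons overlap the antisense gene ITGB2-AS1, which was at 1.02 TPM with TGH and 0.862 TPM with DMSO. The exons of ITGA7 overlap BLOC1S1 and METTL7B on the opposite strand, and those of ITGA1 overlap PELO on the same strand, so these values are uncertain too.

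**Figure D3:**
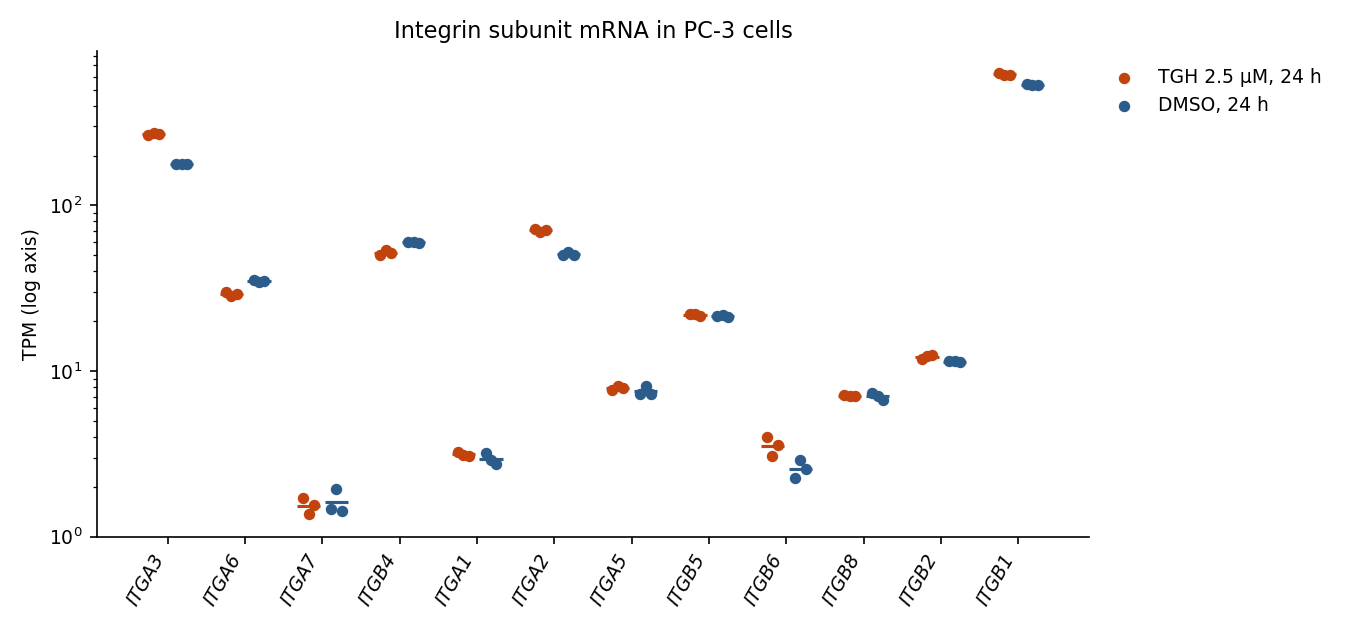
TPM of the 12 tested integrin subunits in each library on a log axis, with TGH left of DMSO for each gene. Each point is 1 library and each line the mean of 3. ITGB1 and ITGA3 are the most abundant, and ITGA6 and ITGB4 are the subunits that lie lower with TGH in every library and were called.

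Of 14 collagens tested, 6 rose, 1 fell and 7 were not called, with a median log2 difference of 0.09. The 42.9% higher and 7.14% lower stand beside 28.9% and 26.3% of all genes, and the share called, 50%, was near the 55.2% of all genes. Of the 4 type IV chains of the basement membrane tested, COL4A1, COL4A5 and COL4A6 rose and COL4A2, the most abundant, was not called. COL4A1 had 9.01, 9.71 and 10.2 TPM with TGH, against 7.72, 7.65 and 8.41 TPM with DMSO, a rise of 0.25 (SE 0.057, adjusted p = 0.00917). Against DMSO replicate 3 alone the call was lost (0.17, adjusted p = 0.109). COL4A2, which joins COL4A1 in the same trimer and starts next to it on the opposite strand, had 25.7, 26.5 and 26.9 TPM with TGH, against 26.5, 25.7 and 25.5 TPM with DMSO. The groups overlapped and the difference of 0.02 was not called (95% confidence interval -0.05 to 0.10, adjusted p = 0.53). COL4A2 exceeded COL4A1 by a ratio of 2.74 ± 0.104 with TGH and 3.27 ± 0.217 with DMSO (SD, n = 3 each; exact permutation p = 0.1, the smallest this design allows).

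COL4A5 and COL4A6, neighbouring chains of the type IV network encoded on the X chromosome, both rose. COL4A5 averaged 7.34 ± 0.132 TPM with TGH and 6.04 ± 0.284 TPM with DMSO (0.24, SE 0.045, adjusted p = 0.00374). COL4A6 averaged 3.34 ± 0.0349 TPM with TGH and 2.57 ± 0.165 TPM with DMSO (0.28, SE 0.056, adjusted p = 0.00526), a call lost under quantile normalization (0.16, adjusted p = 0.051). Neither gene overlapped between groups.

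Type VI collagen, which forms beaded filaments around cells, was the most abundant collagen. COL6A1 averaged 137 ± 2.10 TPM with TGH and 132 ± 4.05 TPM with DMSO, and COL6A2 averaged 190 ± 4.69 TPM with TGH and 178 ± 9.85 TPM with DMSO. Neither was called (0.06, adjusted p = 0.124; 0.09, adjusted p = 0.109), but both were called under quantile normalization (0.09, adjusted p = 0.0245; 0.13, adjusted p = 0.0421). COL6A2 was also called with the replicate number as a block (adjusted p = 0.0392). The third chain, COL6A3, averaged 23.9 ± 0.838 TPM with TGH and 19.9 ± 0.474 TPM with DMSO and rose by 0.25 (SE 0.037, adjusted p = 0.00138).

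COL8A1, a chain of the hexagonal network collagen of vessel walls and cornea, had the largest log2 difference among the collagens. It had 1.87, 1.96 and 2.13 TPM with TGH, against 0.422, 0.807 and 0.787 TPM with DMSO, a rise of 0.85 (SE 0.111, adjusted p = 0.000881). As said above, it passed the filter of 1 TPM only through the TGH libraries, so it had to differ to be tested. The size of the difference depends on the offset at this low level, with 1.48 at a pseudocount of 0.1 and 0.30 at 5. COL5A1, a fibril-forming chain, had 2.08, 2.07 and 1.95 TPM with TGH, against 1.26, 1.51 and 1.44 TPM with DMSO. It rose by 0.34 (SE 0.069, adjusted p = 0.00611), and the call was lost under quantile normalization (0.19, adjusted p = 0.053). COL5A2, the partner chain, averaged 13.3 TPM with TGH and 12.5 TPM with DMSO and was not called (0.08, adjusted p = 0.113), except without DMSO replicate 1 (0.11, adjusted p = 0.0384).

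COL1A1, a chain of type I collagen of bone and skin, was the only collagen that fell. It had 2.54, 2.81 and 2.90 TPM with TGH, against 3.52, 3.24 and 3.41 TPM with DMSO, a log2 difference of -0.23 (SE 0.060, adjusted p = 0.0173). The call was lost without TGH replicate 1 (-0.19, adjusted p = 0.0546) and against DMSO replicate 3 alone (-0.23, adjusted p = 0.0689). COL1A2, the chain that normally completes the type I trimer, was near 0, at 0.0172 TPM with TGH and 0.0242 TPM with DMSO. COL18A1, a basement membrane collagen that carries the endostatin fragment, had 12.2, 14.1 and 12.6 TPM with TGH, against 11.2, 12.7 and 13.5 TPM with DMSO, with overlapping groups (0.05, 95% confidence interval -0.14 to 0.24). Its exons overlap SLC19A1 on the opposite strand, which averaged 26.6 TPM with TGH and 33.0 TPM with DMSO. COL12A1, a fibril-associated collagen, and COL13A1, a transmembrane collagen, were also uncalled, with intervals of -0.10 to 0.16 and -0.04 to 0.14.

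**Figure D4:**
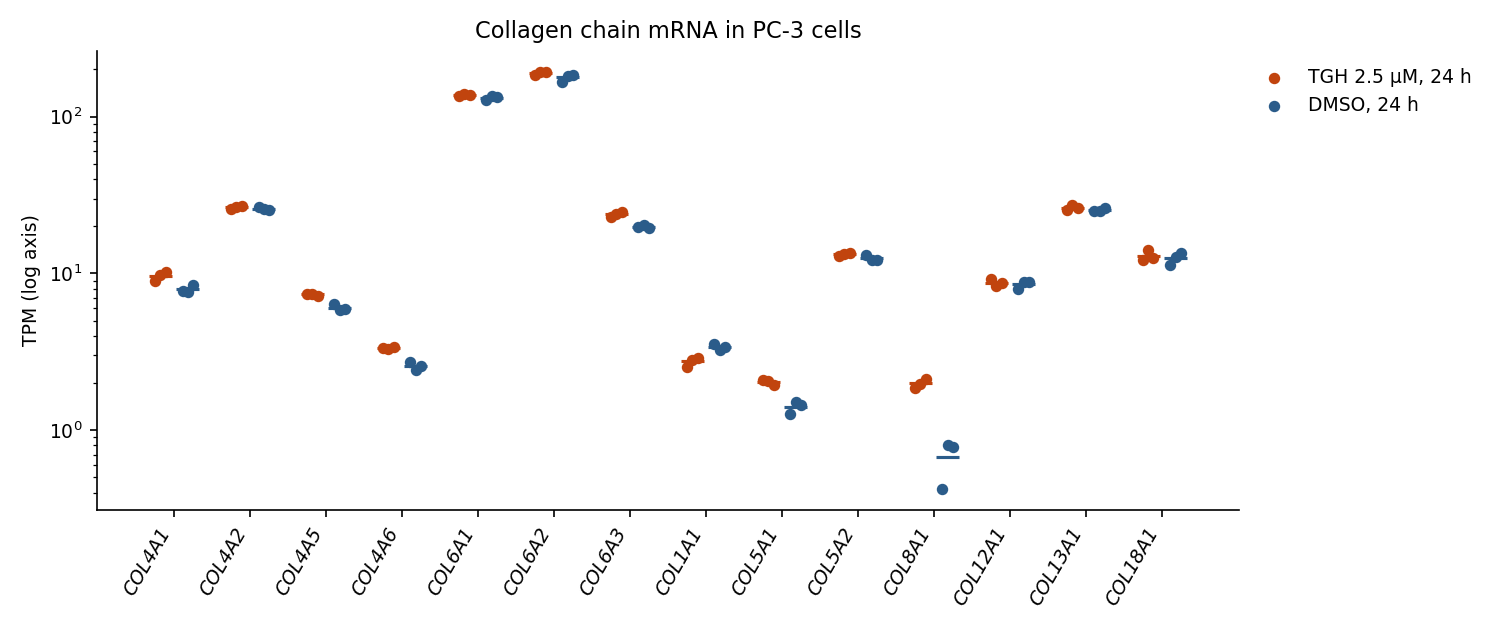
TPM of the 14 tested collagen chains in each library on a log axis, with TGH left of DMSO for each gene. Each point is 1 library and each line the mean of 3. COL6A1 and COL6A2 are the most abundant, and COL8A1 shows the widest gap between groups.

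The other 36 members were under 1 TPM on average and were not tested in the comparison above. Of these, 17 were near 0, with a mean under 0.1 TPM in both groups, and are taken as not expressed: 14 collagens (among them COL1A2, COL2A1, COL3A1, COL10A1 and COL11A1), the integrin subunits ITGA9 and ITGA11, and LAMB4. The remaining 19 were low: COL4A3, COL4A4, COL7A1, COL8A2, COL9A2, COL9A3, COL11A2, COL16A1, COL17A1, COL21A1, COL27A1, ITGA2B, ITGA4, ITGA10, ITGB3, ITGB7, LAMA1, LAMA2 and LAMC3. Among members, 4 to 5 were listed at exactly 0 in each TGH library and 5 to 10 in each DMSO library. The members next to the filter were LAMC3, with a mean of 0.839 TPM, and COL8A1, with 1.33 TPM.

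Both collagens tied to the epithelial anchoring complex were low. COL17A1, a transmembrane hemidesmosome collagen, had 0.656, 0.698 and 0.645 TPM with TGH, against 0.521, 0.362 and 0.438 TPM with DMSO. COL7A1, which forms anchoring fibrils, had 0.395, 0.509 and 0.345 TPM with TGH, against 0.203, 0.205 and 0.249 TPM with DMSO. In both genes all TGH libraries were above all DMSO libraries. Without the filter on low values 6 of the 36 (16.7%) were called, all higher with TGH, where 10.9% of the 6762 genes under 1 TPM were called higher and 1.82% lower: COL17A1 (0.21, adjusted p = 0.0172), COL7A1 (0.21, adjusted p = 0.0162), COL4A3 (0.15, adjusted p = 0.00545), COL4A4 (0.23, adjusted p = 0.000314), ITGB3 (0.30, adjusted p = 0.00295) and LAMA1 (0.26, adjusted p = 0.0073). The depth of these libraries is unknown, so the precision of such low values is unknown too.

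Genes that work with these proteins were read from lists by role, and the counts are to be set beside 28.9% higher and 26.3% lower among all genes. Of 33 tested genes of focal adhesions and integrin activation 15 rose and 7 fell (median 0.09). TGFB1I1, an adhesion adaptor related to paxillin, rose by 0.69, LIMS2, an adaptor of the integrin-linked kinase complex, by 0.74, FERMT2, the integrin activator kindlin-2, by 0.68, and FLNA, an actin cross-linker that binds integrin tails, by 0.36. Their adjusted p values were at or below 6.35e-05. Of 21 genes of collagen folding and modification 9 rose and 2 fell (median 0.15). MIA3, which loads collagen into transport carriers, rose by 0.89, PPIB, a prolyl isomerase, by 0.76, CTAGE5, a partner of MIA3, by 0.64, and P4HB, a subunit of prolyl hydroxylase, by 0.50 (adjusted p at or below 0.000107). SERPINH1, the collagen chaperone HSP47, which was named after its values were seen, had -0.10 (adjusted p = 0.143).

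Of 12 genes of collagen processing and cross-linking 5 rose and 3 fell (median 0.01). ADAMTS14, which cleaves procollagen, rose by 0.71, TLL1, a related procollagen protease, by 0.54, and LOXL1, a lysyl oxidase, by 0.39, while TGM2, a transglutaminase, fell by 0.45. Of 9 other genes of the basement membrane and hemidesmosome 4 rose and 0 fell (median 0.12). NTN4, a netrin that binds laminin gamma chains, rose by 0.60, FRAS1, a basement membrane protein, by 0.54, HSPG2, the proteoglycan perlecan, by 0.27, and DST, a hemidesmosome linker, by 0.12, the last a call lost under 9 of 16 alternatives (adjusted p up to 0.15). TLL1 and FRAS1 averaged under 1 TPM with DMSO and passed the filter only through the TGH libraries, so they had to differ to be counted.

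Non-integrin receptors of collagen and laminin had 1 rise and 4 falls among 10 tested (median -0.11). CD44, a hyaluronan receptor that also binds matrix proteins, fell by 0.41, BCAM, a receptor for LAMA5, by 0.40, and DAG1, dystroglycan, by 0.25, while DDR1, a collagen receptor kinase, rose by 0.15. Of 15 other integrin ligands 4 rose and 5 fell (median -0.03). FN1, fibronectin, rose by 0.61, while THBS1, thrombospondin, fell by 0.69, CTGF, a matrix protein, by 0.74 and TNC, tenascin, by 0.36. No list was tested as a set.

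**Figure D5:**
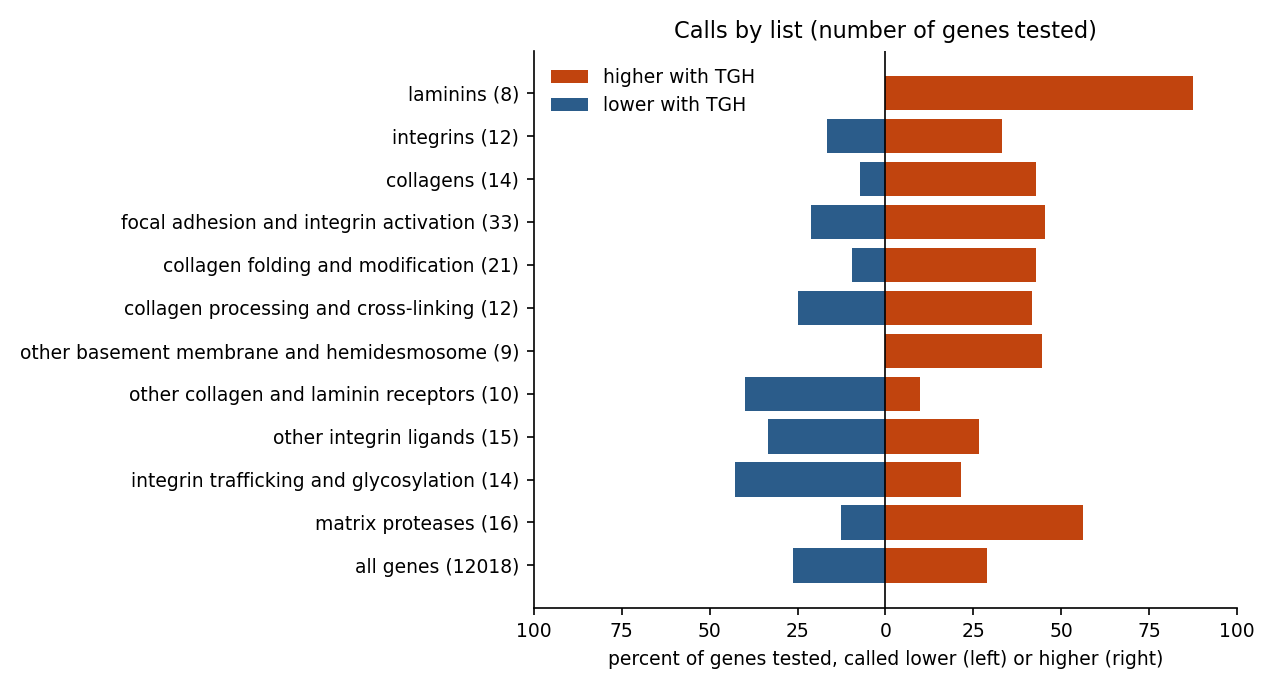
Percent of the tested genes of each list that were called higher (right) or lower (left) with TGH, with the number of genes tested in parentheses. Laminins have 7 of 8 higher, and the bottom bar gives all 12018 genes, with 28.9% higher and 26.3% lower.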

How the data were processed

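RNA of 6 PC-3 libraries was measured by RNA sequencing. Per the labels' protocols, RNA was depleted of ribosomal RNA and prepared with a directional kit. The authors deposited log2(TPM + 1) values per gene symbol. The smallest value is 0, as an offset of 1 gives. Hg19 is the build named in the submitters' processing notes. Aligner, quantifier, annotation and strand setting were not given in the sources used here. Listed TPM summed to 50.2% to 51.9% of the full TPM scale per library. TPM keeps no read total, so depth is unknown.

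The members and lists were chosen with earlier results of these data known. The 12018 genes that averaged 1 TPM or more across libraries entered 1 limma fit (version 3.58.1, R 4.3.3) of TGH minus DMSO. Its two-sided tests used moderated variances with an expression trend, and p-values were adjusted by Benjamini-Hochberg. Log2 differences understate the change of low genes. The fit was also run on simulated data with independent noise and few changed genes. Many genes were called here, so that run gives no measure of error in these calls. The rule names all tested members (1 is not reported here), with per-library values for up to 10 rises and 10 falls and for 18 chosen genes whatever their result, and up to 4 genes of each other list with the smallest p. Exact permutation tests used scipy 1.17.1, and figures matplotlib 3.10.9. Alternatives were pseudocounts of 0.1 and 5, no filter or at least 5 TPM, quantile normalization, median scaling, no trend, a replicate block, exact zeros taken as missing, DMSO replicate 3 as the only control, and leaving out each library. Coordinates are RefSeq's, since the table gives symbols alone.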

Additional observations from a re-analysis of the deposited data

How the results depend on the processing

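Of the 20 called members 15 were called in every alternative in which they were tested, and of the 14 uncalled members 11 stayed uncalled. No member changed direction while called. Members called higher numbered 17 in the main comparison and 13 to 22 under the alternatives, with the low end at a mean of at least 5 TPM, where fewer genes are tested, and the high end without a filter. Members called lower numbered 2 or 3 throughout. Leaving out 1 library gave 16 to 17 higher and 2 to 3 lower. The calls lost or gained were those of ITGB6, COL1A1, COL4A1, COL4A6, COL5A1, COL5A2, COL6A1 and COL6A2, as given with their values above; the cause was not tested. With DMSO replicate 3 as the only control, where only the TGH libraries give a spread, 15 were higher and 2 lower.

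Same-numbered libraries had correlations of their deviations of 0.009, 0.054 and 0.228 for numbers 1 to 3. Libraries of unlike number had -0.158 to 0.096, so the value for number 3 was the highest of all. The main fit did not pair the libraries, and a replicate block was run as an alternative. With the replicate block 17 members were higher and 3 lower, and over all genes 3273 were higher and 2958 lower, against 3479 and 3156 without it. Over all genes, higher calls numbered 2578 to 3879 and lower calls 2557 to 3643 under the alternatives. The log2 differences of low genes also moved with the offset: at a pseudocount of 5, LAMA4 had 0.21, ITGB6 0.17, COL4A5 0.16, COL4A6 0.14, COL5A1 0.14 and COL1A1 -0.12, and at 0.1 COL5A1 had 0.51. Under quantile normalization COL1A1 had -0.34.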

Other observations

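Matrix proteases and their inhibitors were read from a list by role, and so were genes of integrin trafficking and glycosylation. Of 16 protease and inhibitor genes tested 9 rose and 2 fell (median 0.14), where 28.9% of all genes were higher and 26.3% lower. ADAM17, a protease that sheds membrane proteins, rose by 0.45 (SE 0.044), and the related ADAM10 by 0.43 (SE 0.054). PLAUR, the urokinase receptor, averaged 79.9 ± 0.457 TPM with TGH and 68.1 ± 1.16 TPM with DMSO (SD, n = 3 each), a rise of 0.23. PLAT, tissue plasminogen activator, averaged 52.4 ± 0.706 TPM with TGH and 61.1 ± 2.49 TPM with DMSO and fell by 0.22. All 4 had an adjusted p (limma) no higher than 0.00188.

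Of 14 trafficking and glycosylation genes tested 3 rose and 6 fell (median 0.01). AP2M1, a subunit of the clathrin adaptor, fell by 0.27 and CLTC, clathrin heavy chain, by 0.24, while GGA3, an adaptor of receptor recycling, rose by 0.29. MGAT5, which adds branches to the N-glycans of integrins and other proteins, fell by 0.19 (adjusted p = 0.00398).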
